A study of Bos taurus and Sus scrofa with 10 samples.

Results

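The step from the cow oocyte to the 2-4 cell embryo was described gene by gene from 1 RNA sequencing library of each stage. A gene row was compared when it reached 1 read per 1000000 reads of the library (RPM) in either library, which held for 11226 of the 22845 rows of the cow table. The lowest larger level inside this rule was 1.01 RPM and the highest one outside it was 0.901 RPM. The median difference was 0.23 on the log2(RPM + 1) scale for the 322 rows between 1 and 1.2 RPM, and 0.24 for the 395 rows between 0.8 and 1 RPM. Of the 11619 rows left out, 9330 had no reads in either library.

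The series followed cow and pig from oocyte to blastocyst, with 5 stages and 1 library per stage and species, and its title names DNA methylation of the embryo before implantation as the subject. The groups here were Bos taurus oocytes and Bos taurus 2-4 cell embryos, with no treatment or genotype named. Total RNA from both was isolated with the PicoPure column kit, amplified with the Ovation RNA-Seq System V2, which is made for small inputs, and given 8 PCR cycles in library preparation. The number of oocytes or embryos per library, the maturation stage of the oocytes, the breed and the way the embryos were produced are not given in the sources used here. With 1 library per group no difference below has a replicate check, so none carries a p-value.

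A fully grown oocyte carries a store of messenger RNA and makes little new RNA. After fertilization the first cleavages run on this maternal store, by translating stored messages and removing them in steps. In cattle the main activation of the embryo's own genome is known to come after the 2-4 cell stage, so maternal transcripts form most of the RNA of the early cleavage embryo.

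The oocyte library held 4929953 reads and the 2-4 cell library 4438610, of which 72.3% and 74.8% lay in gene rows. A count of 0 allows up to 3 reads, 0.609 RPM in the oocyte library and 0.676 RPM in the 2-4 cell library. Intervals are 95% Wilson intervals for levels and exact binomial intervals for ratios of reads. PCR reads without molecular identifiers are not independent molecules, so these intervals and floors cover counting error only. All 19 oocyte markers found in the table were compared in both libraries, with summed levels of 11606 and 10913 RPM. Of 20 cumulus cell markers, which mark the somatic cells around the oocyte, 7 had no reads in either library (AMH, AMHR2, CYP11A1, FOXL2, FST, INHA and LHCGR) and 10 were compared, and the list summed to 553 RPM in the oocyte and 477 RPM at the 2-4 cell stage. In such bulk samples fewer cells of a type and less RNA per cell cannot be told apart. Most of that sum came from VCAN, PTGS2, HAS2 and STAR, which had between 91.3 and 157 RPM in the oocyte. Of 14 sperm markers 9 had no reads in either library, among them PRM1, PRM2, TNP1 and TNP2. Of 21 blastocyst markers 9 had no reads in either library, among them NANOG, GATA6 and KRT18, and the list summed to 276 and 302 RPM.

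Most RNA kept its level across this step. The difference of log2(RPM + 1), 2-4 cell minus oocyte, was under 1 in size for 9883 genes, which is 88.0% of those compared, and these genes held 91.9% of the oocyte's reads in gene rows. Spearman's correlation of the levels was 0.962 across the compared genes, which are not independent replicates. The 100 most abundant rows of each library had 77 in common, and the 1000 most abundant had 839 in common. A gene was called changed at a difference of 2 or more, 4-fold on this scale, which understates the change of low genes. By this rule 42 genes were called, 0.374% of those compared. Of these, 22 (0.196%) were higher and 20 (0.178%) were lower at the 2-4 cell stage, a share of 52.4% higher that became 34.9% when libraries were scaled to the median gene and 26.1% under quantile normalisation. A pseudocount of 5 RPM in place of 1 left 2 higher and 6 lower. The genes that fell had held 0.127% of the oocyte's gene reads, and the genes that rose held 0.0944% of the 2-4 cell gene reads.

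**Figure D1:**
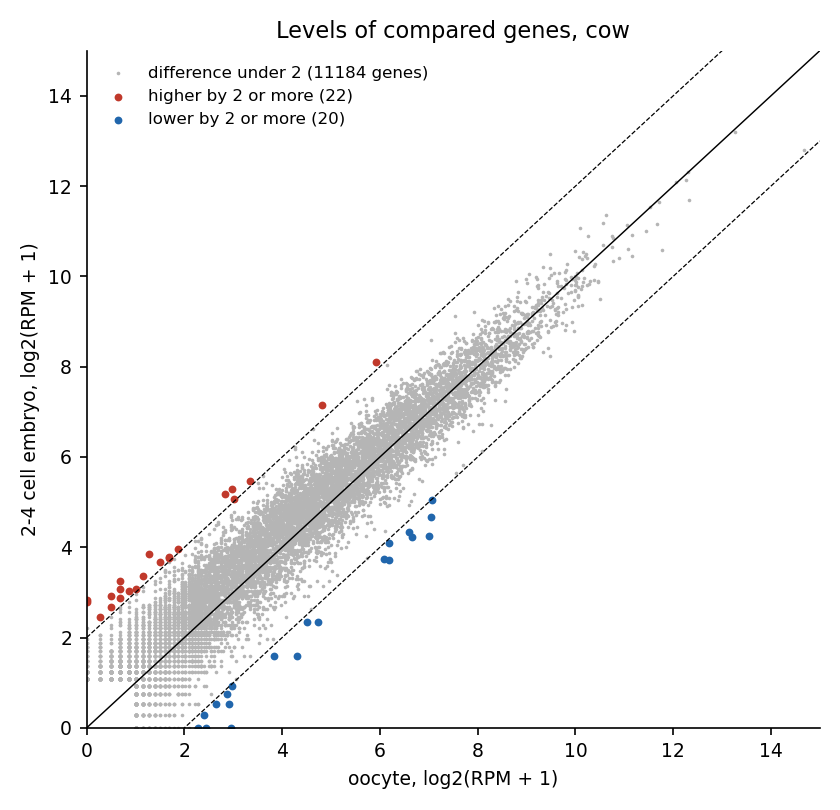
Level of each of the 11226 compared genes in the cow oocyte library (x axis) and the cow 2-4 cell library (y axis), both as log2(RPM + 1), with dashed lines at a difference of 2. The cloud lies along the diagonal, with 22 red points above the upper line and 20 blue points below the lower one.

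Smaller differences leaned to higher values at the 2-4 cell stage. A difference of 1 or more, 2-fold on this scale, was found for 1343 genes (12% of those compared). Of all compared genes 1080 (9.62%) were higher and 263 (2.34%) were lower, against 606 and 418 under median scaling and 413 and 545 under quantile normalisation. The median over all compared genes was 0.27, with 5% of genes below -0.74 and 5% above 1.18. Median scaling lowered the 2-4 cell values by 0.20 on the log2 scale, and small differences of gene groups are therefore read against the 0.27 of all genes. Some genes could differ in 1 direction only, by how they entered. The 697 genes that passed by the 2-4 cell library alone had to be higher there and had a median of 0.84, while the 398 that passed by the oocyte alone had a median of -0.69. The former include 9 of the genes called higher, and the latter 8 of those called lower. The 10131 genes at 1 RPM or more in both libraries had a median of 0.25, with 883 higher and 180 lower by 1.

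The difference also moved with the level in the oocyte. The oocyte level is itself a term of the difference, so some order of this kind is built in. The 1932 genes at 1 to 3 RPM in the oocyte had a median difference of 0.22. Genes at 3 to 10 RPM had a median difference of 0.34 and those at 30 to 100 RPM one of 0.19. The 1195 genes at 100 to 300 RPM were centred near 0, with a median of 0.04, and the 62 genes at 1000 RPM or more had a median of -0.17. RPM values are shares of a library, and the amount of RNA per oocyte or embryo was not measured.

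Among the 20 rows with the most reads in the oocyte, 15 were also among the top 20 of the 2-4 cell embryo. CENPF, a kinetochore protein, had 5032 RPM in the oocyte (4970 to 5095) and 5121 RPM at the 2-4 cell stage (5055 to 5188). ANKRD17 went from 4290 to 4343 RPM and the transcription elongation factor LEO1 from 4933 to 4486 RPM. These messages stood at nearly the same level in both libraries. ZP2, a protein of the zona pellucida coat, had 3261 RPM in the oocyte and 2291 RPM at the 2-4 cell stage, and DPPA3, which protects maternal DNA methylation, had 2769 and 2062 RPM. BTG4, an adaptor for removal of poly(A) tails from maternal messages, had 1723 and 1917 RPM. The mitotic kinesin KIF20B was the lowest of those with a symbol, with 3516 RPM in the oocyte and 1535 RPM after cleavage, a difference of -1.20.

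Of the 1663 genes with 100 RPM or more in the oocyte, 1624 (97.7%) stood at 50% or more of their oocyte level in the 2-4 cell embryo, and the median gene was at 99.4%. The quartiles were 79.4% and 124%. On the log2(RPM + 1) scale the median of all genes was 0.27, so this class stood lower than the typical gene. Choice by a high oocyte level favours lower percents. Median scaling, which lowered the 2-4 cell values by 0.20 on the log2 scale, would lower the percents further. Only RNF219, CREG1, ERP44 and RNF168 fell under 25%. In this class 21 genes (1.26%) were higher by 1 or more and 39 (2.35%) were lower. The 5 with the highest differences were PARP12, GATAD2A, LMO7, DYNLL2 and SYF2. PARP12, an ADP-ribosyltransferase, had 184 RPM in the oocyte and 553 RPM at the 2-4 cell stage. GATAD2A, a subunit of the NuRD chromatin complex, had 131 and 385 RPM, and the dynein light chain DYNLL2 had 185 and 428 RPM. In the later libraries the median level of the same genes was 46.9% of the oocyte's in the 8-16 cell library, 41.4% in the morula and 25.6% in the blastocyst. Mitochondrial rows took 10.7%, 9.15% and 30.2% of reads in those libraries, against 4.40% in the oocyte, which left smaller shares for other genes. The part of this in the decline was not tested, nor was that of choosing these genes by their oocyte level. In the 8-16 cell library 398 of them (23.9%) were under 25% of the oocyte level, against 4 (0.241%) in the 2-4 cell library.

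**Figure D2:**
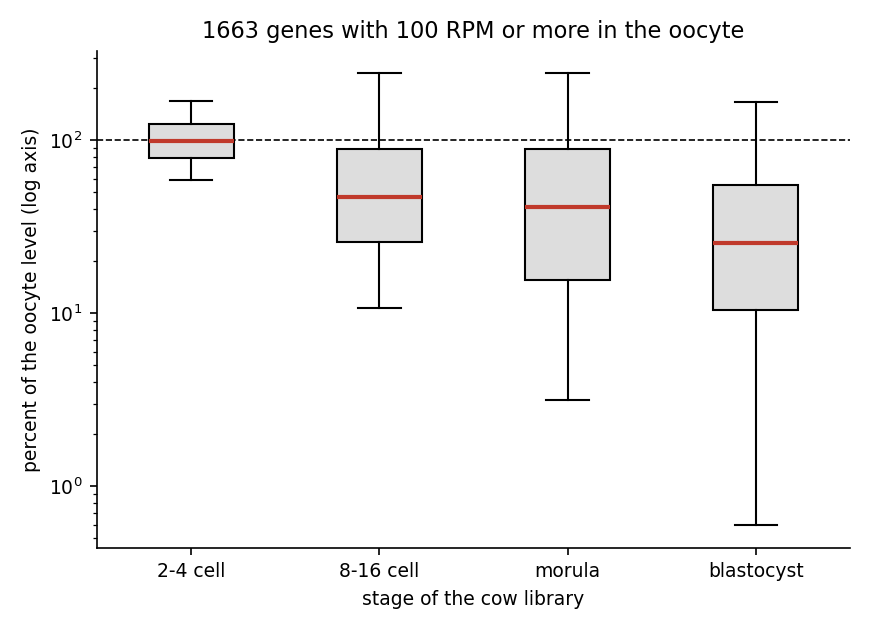
Level of the 1663 genes with 100 RPM or more in the oocyte, as a percent of the oocyte level on a log axis, in each later cow library (1 library per stage). Boxes span the quartiles with the median in red and whiskers span the 5th to 95th percentile of genes; the box lies around 100% at the 2-4 cell stage and below it from the 8-16 cell stage on.

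Most members of the gene lists of the maternal programme lay within 1 of their oocyte levels, as did 88.0% of all compared genes. The lists were assembled with earlier results of these data known, and their counts are read against the 9.62% higher and 2.34% lower of all genes. The share higher by 1 ran from 0% for coat proteins and secreted factors to 28.6% for the NLRP family and its complex. Among coat proteins and secreted factors of the oocyte, 0 of 9 compared members differed by 1 in either direction, with a median of 0.04. OOSP1, an oocyte-secreted protein, had 1053 RPM in the oocyte and 1080 RPM at the 2-4 cell stage, and the growth factor BMP15 had 1181 and 1399 RPM. In the NLRP family and the subcortical maternal complex, a protein assembly under the membrane of oocyte and early embryo, 2 of 7 compared members were higher by 1 and 0 lower, with a median of 0.75. These were OOEP, with 6.29 and 16.9 RPM, and NLRP8, with 106 and 214 RPM. Of 18 maternal factors needed by the early embryo 3 were higher by 1 and 0 lower, with a median of 0.65. The members past that bound were the histone chaperones NPM2, with 76.1 and 157 RPM, and NPM3, with 1.22 and 3.83 RPM, and the chromatin remodeller SMARCA4, with 66.3 and 135 RPM.

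Storage factors were higher by 1 more often than all genes (13.5% against 9.62%), and decay factors less often (2.44%). Of 37 compared genes for storage, polyadenylation and translational control of maternal messages, 5 were higher by 1 and 0 lower, with a median of 0.40, and 0.20 under median scaling. EIF4E1B, the oocyte form of the cap-binding protein, had 20.1 RPM in the oocyte (16.5 to 24.4) and 68.3 RPM at the 2-4 cell stage (61.0 to 76.4), a difference of 1.72. The general cap-binding protein EIF4E had 805 and 566 RPM. For both genes the intervals of the libraries did not overlap, in opposite directions. Of 41 compared decay factors 1 was higher by 1, the nonsense-mediated decay helicase UPF1 with 16.6 and 35.6 RPM, and 0 were lower. The scaffold of the deadenylase complex, CNOT1, had 598 and 606 RPM. The median of the decay list was 0.13, and -0.08 with median scaling.

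Of 43 compared regulators of meiotic and mitotic M phase 5 were higher by 1 and 0 lower, with a median of 0.20. AURKC, the Aurora kinase of meiosis and early cleavage, had 51.7 RPM in the oocyte and 128 RPM at the 2-4 cell stage, and PKMYT1, an inhibitory kinase of CDK1, had 1.22 and 5.41 RPM. Abundant members lay on both sides: AURKA had 1581 and 2617 RPM and cyclin B1 (CCNB1) 879 and 982 RPM, while the meiotic cohesin subunit SMC1B had 1130 and 660 RPM and FBXO5, an inhibitor of the anaphase-promoting complex, had 892 and 486 RPM. The median of this list was 0.0025 under median scaling. In the list for DNA replication and repair 4 of 81 compared members were higher by 1 and 1 was lower, with a median of 0.11 that became -0.09 under median scaling and -0.07 under quantile normalisation. The lower one was NBN, part of the double-strand break sensor, with 55.4 and 22.8 RPM. BRCA2 had 1447 RPM in the oocyte and 727 RPM at the 2-4 cell stage, a difference of -0.99.

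Genes linked to activation of the embryonic genome showed no member higher by 1. Of 28 compared members 0 were higher and 1 was lower by that bound, with a median of 0.29, and 0.05 under quantile normalisation. The lower one was KLF5, a transcription factor with 30.8 RPM in the oocyte, 11.7 RPM at the 2-4 cell stage, and 188, 274 and 449 RPM in the 8-16 cell, morula and blastocyst libraries. KLF4 had 14.6 and 26.6 RPM in the oocyte and 2-4 cell libraries and 948 RPM in the 8-16 cell library. Of 24 compared genes of DNA methylation 1 was higher by 1, the histone methyltransferase EHMT1 with 9.33 and 22.1 RPM, and 0 were lower. The median of this list was 0.39, with 19 members higher and 5 lower to any degree. UHRF2, among the lower ones, had 1016 and 818 RPM.

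Of the gene groups of the basic cell machinery, ribosomal proteins and the respiratory chain were past 1 on both sides, and the proteasome on the higher side only. Of 77 compared cytosolic ribosomal proteins 4 were higher and 5 lower by 1, with a median of 0.31 that became 0.023 under quantile normalisation. RPS28 had 3.65 RPM in the oocyte and 16.7 RPM at the 2-4 cell stage, and RPL18 had 28.2 and 10.6 RPM. Near-identical copies of ribosomal protein genes could divide reads between rows, and how such reads were counted is not given in the sources used here. Of 68 compared nuclear genes of the respiratory chain 8 were higher and 4 lower by 1, with a median of 0.20 that became -0.13 with quantile normalisation. UQCRH, of complex III, had 23.9 RPM in the oocyte and 97.8 RPM at the 2-4 cell stage, while NDUFA6, of complex I, had 27.4 and 7.89 RPM. Of 43 compared proteasome subunits 7 were higher by 1 and 0 lower, with a median of 0.46 that became 0.16 under quantile normalisation. The ATPase subunit PSMC1 had 7.91 and 23.2 RPM.

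Histones had the highest list median, 0.84, with 5 of 22 compared members higher by 1 and 0 lower. The summed level of the list was 2122 RPM in the oocyte and 3674 RPM at the 2-4 cell stage. The row named H2B accounted for 711 and 1453 of these, and the linker histone HIST1H1D had 9.53 RPM (7.17 to 12.7) and 30.9 RPM (26.1 to 36.5). Over the scalings, pseudocounts and minimum levels tried, the histone median stayed between 0.53 and 0.86. Histone genes sit in clusters of near-identical copies, so single rows are uncertain. The listed histone genes lie in gene-dense regions, with a median of 33 other gene rows centred within 500 kb against 12 for all compared genes, and the 1053 compared genes with 30 to 39 such neighbours had a median of 0.56. When each difference was centred by that number of neighbours, with the median of all genes kept at its level, the histone median was 0.54. The NLRP list, with a median of 24 neighbours, then had a median of 0.62, the proteasome list, with 18, one of 0.27, and the ribosomal proteins, with 20, one of 0.10.

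**Figure D3:**
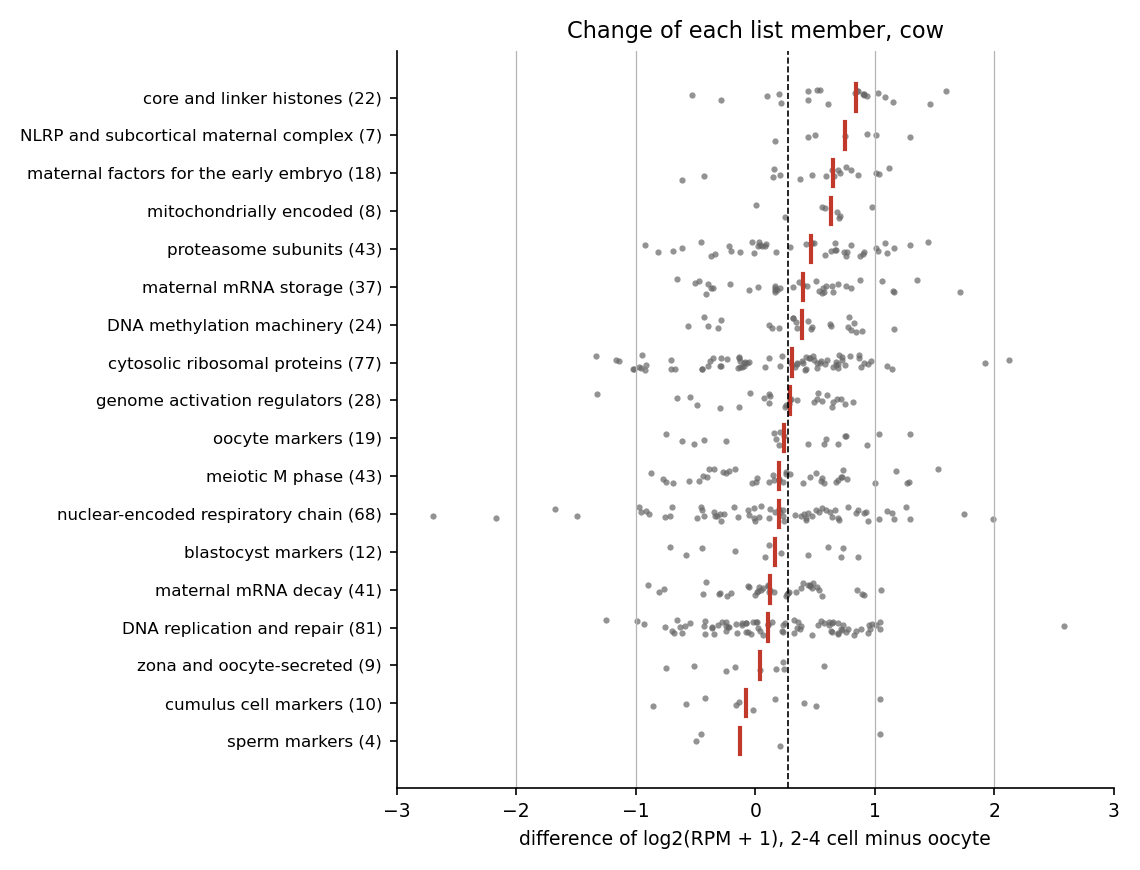
Difference of log2(RPM + 1), 2-4 cell minus oocyte, of each compared member (points) of the 18 gene lists, with the number compared in brackets, the list median in red and the median of all compared genes (0.27) as a dashed line. Most points lie within 1 of 0. COX7B and NDUFB1 of the respiratory chain lie below -2, and the points above 2 include the ribosomal protein RPSA.

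Of the 20 genes that fell, 4 had 100 RPM or more in the oocyte and 8 had under 10 RPM. All 20 carry a symbol. All 20 also passed the threshold under the 5 scalings used (reads of the library, reads in gene rows, non-mitochondrial reads, the median gene and quantiles). The scalings after the first lowered the median difference of all genes from 0.27 to 0.24, 0.21, 0.10 and 0.021. They gave 27, 30, 28 and 34 lower calls in place of 20, so genes already called lower were unlikely to drop out. The count is therefore no check of the fall.

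Both RING-type ubiquitin ligases among them were well measured. RNF219, a ligase that marks the origin recognition complex, lies at chr12:54102936-54147844 (build UMD3.1, as for every position here). It had 127 RPM in the oocyte (118 to 138) and 18.02 RPM at the 2-4 cell stage (14.5 to 22.4), 7.06-fold lower (5.58 to 9.02). Later it had 8.47, 18.98 and 13.1 RPM, so that no later library came near the oocyte. RNF168, which ubiquitinates histone H2A at DNA breaks, lies at chr1:71629579-71653254. It had 132 RPM in the oocyte and 32.0 RPM at the 2-4 cell stage, 4.13-fold lower (3.44 to 4.985), then 268 RPM in the 8-16 cell library, 151 RPM in the morula and 10.7 RPM in the blastocyst. Its difference of -2.01 lay just inside the threshold. CNIH4, a cargo receptor of the early secretory pathway with 273 and 68.7 RPM, lay just outside it at -1.97.

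Several genes that fell work in the secretory pathway, in lysosomes or in lipid synthesis. ERP44, a chaperone that retains client proteins in the early secretory pathway, lies at chr8:65500573-65597182 and had 130 RPM in the oocyte (121 to 141) and 24.6 RPM at the 2-4 cell stage (20.4 to 29.6), 5.31-fold lower. TRAPPC6B, a subunit of the TRAPP vesicle-tethering complex, had 72.2 and 12.2 RPM, 5.94-fold lower. CREG1, a glycoprotein of lysosomes, had 101 and 17.8 RPM, 5.65-fold lower (4.45 to 7.26), and then 5.71, 2.31 and 1.06 RPM. In CREG1 each later library was lower than the one before it, while ERP44 stood at 34.1, 75.7 and 66.9 RPM. DEGS1, the desaturase of the last step of ceramide synthesis, had 66.7 RPM in the oocyte, 12.4 RPM at the 2-4 cell stage and 73.1 RPM at the 8-16 cell stage. DGAT2, which makes triglycerides, had 6.29 RPM in the oocyte and 3 reads (0.676 RPM) at the 2-4 cell stage, a ratio of 9.30 with a counting interval of 2.90 to 47.6. LAMP3, a lysosomal membrane protein, had 6.90 and 0.901 RPM and no reads in the later libraries.

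In the respiratory chain 2 small subunits fell. COX7B, of complex IV, lies at chrX:79540625-79544590 and had 18.7 RPM in the oocyte (15.2 to 22.9) and 2.03 RPM at the 2-4 cell stage (1.07 to 3.85), 9.20-fold lower (4.64 to 20.8). It then had 82.1, 103 and 71.4 RPM in the later libraries. NDUFB1, of complex I, lies at chr21:57388583-57395511 and had 21.7 and 4.06 RPM, 5.35-fold lower, then 32.8, 59.2 and 21.2 RPM. The 2-4 cell library was thus the lowest of the 5 for both genes. Among all 68 compared members of their list, the other 66 lay within 2.

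Of genes for the cytoskeleton, MSN (moesin, which links actin to the membrane) had 95.7 RPM in the oocyte and 19.4 RPM at the 2-4 cell stage, 4.94-fold lower (3.92 to 6.29), and 32.6, 139 and 875 RPM later. The formin DIAPH3, an actin nucleator, had 71.8 and 16.0 RPM, 4.49-fold lower, and then 196, 1417 and 367 RPM. Both were lowest at the 2-4 cell stage and above the oocyte in morula and blastocyst. NUDCD2, a co-chaperone with a NudC domain, had 13.2 and 2.03 RPM, and THOC6, of the complex that couples transcription to RNA export, had 5.27 RPM and 2 reads (0.451 RPM), a ratio of 11.7 (2.93 to 102). SLC24A5, a sodium, calcium and potassium exchanger, had 32 oocyte reads and 2 reads at the 2-4 cell stage, and CCDC175 had 21 and 1, with ratios of 14.4 (3.675 to 124) and 18.9 (3.04 to 782).

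The remaining genes that fell encode secreted proteins, a matrix enzyme and a receptor. STC1, a secreted glycoprotein hormone, had 25.8 RPM in the oocyte (21.6 to 30.7) and 4.06 RPM at the 2-4 cell stage (2.57 to 6.41), 6.35-fold lower, and at most 3.59 RPM later. POSTN, a matrix protein, had 33 reads (6.69 RPM) in the oocyte and 0 reads in all 4 later cow libraries, at least 9.90-fold lower at the 2-4 cell stage. PLOD2, which hydroxylates lysines of collagen, had 19 reads (3.85 RPM) and 0 reads, at least 5.70-fold lower. PDGFRA, a receptor tyrosine kinase, had 22 reads (4.46 RPM) and 0 reads, at least 6.60-fold lower, and 198 RPM in the 8-16 cell library. Beside these low genes, the matrix genes among the cumulus markers had 116 and 63.5 RPM for VCAN, whose intervals did not overlap, 18 and 11 reads for PTX3, 9 and 7 reads for COL1A2 and 2 and 0 reads for LUM. Of the 10 compared cumulus markers, 4 were higher and 6 lower to any degree. The higher ones include STAR, with 157 and 176 RPM, and GREM1, with 5 and 14 reads, both with overlapping intervals. All cumulus markers together had 553 and 477 RPM, and the part of cumulus RNA in the genes that fell was not tested.

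Of the 22 genes that rose, 16 had under 3 RPM in the oocyte and 2 had 10 RPM or more, so most are known from few oocyte reads. Of these 22, 11 passed the threshold under all 5 scalings. The other 11, GABARAPL2 and RPSA among them, lay within 2 under 1 or more of the scalings. The lower medians under the other scalings work against genes that rose, so this count cannot be set beside that of genes that fell. The threshold was met by CTDSP2 at 2.06 and missed by a row without a symbol (ENSBTAG00000031738) at 1.99.

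TRAF4 and GABARAPL2 were the only genes that rose to 100 RPM or more. TRAF4, an adaptor of receptor signalling with ubiquitin ligase activity, lies at chr19:20723151-20729229. It had 27.2 RPM in the oocyte (22.9 to 32.2) and 141 RPM at the 2-4 cell stage (130 to 152), 5.18-fold higher (4.29 to 6.29), and 21.2, 29.2 and 15.4 RPM later. The 2-4 cell library was the high one of 5. GABARAPL2, an ATG8-family protein of autophagy, lies at chr18:2907580-2917649 and had 59.6 RPM (53.2 to 66.8) and 276 RPM (261 to 292), 4.63-fold higher (4.07 to 5.27). It stayed above the oocyte later, at 352, 221 and 167 RPM.

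Other signalling genes rose from low levels. MET, the receptor of hepatocyte growth factor, lies at chr4:51912652-52042198 and had 1.42 RPM in the oocyte (0.688 to 2.93) and 13.5 RPM at the 2-4 cell stage (10.5 to 17.4), 9.52-fold higher (4.35 to 24.7). It had 12.9, 15.4 and 204 RPM later. RELT, a receptor of the TNF receptor family, had 2.23 and 12.8 RPM, and TOLLIP, an adaptor of Toll-like receptor signalling and endosomal sorting, had 2.23 and 12.6 RPM. Both were at 2.39 RPM or less in the 8-16 cell library. The row of TOLLIP overlaps another gene row, as do those of CCDC175 and LTBP3, and without known strand their reads cannot be assigned. LTBP3, which binds latent TGF-beta, had 2 oocyte reads and 6.53 RPM at the 2-4 cell stage, a ratio of 16.1 (4.07 to 139). CTDSP2, a small phosphatase of the CTD family, had 7.10 and 32.7 RPM, and ARF5, a small GTPase of Golgi traffic, had 1.83 and 11.7 RPM.

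Of genes for replication and chromatin, TRAIP, a ubiquitin ligase of the replication machinery, lies at chr22:50970363-50987947 and had 2.64 RPM (1.54 to 4.51) and 14.6 RPM (11.5 to 18.7), 5.55-fold higher, and then 4.79, 3.08 and 0.141 RPM. A row named HIST2H2AC at chr3:20804199-20804743 had 1 and 20 reads, a ratio of 22.2 (3.55 to 921). Another row of that symbol, with 3.04 and 10.1 RPM, is the one in the histone list.

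Of the remaining genes that rose, RPSA, a protein of the small ribosomal subunit, had 9.13 RPM in the oocyte and 43.0 RPM at the 2-4 cell stage, 4.71-fold higher, and 262 RPM in the blastocyst. APMAP, a membrane protein, had 6.09 RPM (4.26 to 8.69) and 35.4 RPM (30.2 to 41.4), 5.81-fold higher. SELENOW, a selenoprotein, and NCKAP5L each had 3 oocyte reads and 6.31 and 7.43 RPM at the 2-4 cell stage, ratios of 10.4 (3.20 to 53.3) and 12.2 (3.83 to 62.3). TMEM119 had 2 oocyte reads and 5.41 RPM, a ratio of 13.3 (3.31 to 116), and TPRG1L and C5H12orf57 rose from 0.811 to 7.21 RPM and from 1.01 to 7.43 RPM. A row for the RNA of the signal recognition particle (Metazoa_SRP) had 0 oocyte reads and 5.86 RPM, at least 9.63-fold higher. The 3 rows without a symbol include ENSBTAG00000001152, with 6.90 RPM in the oocyte, 38.3 RPM at the 2-4 cell stage and 2.39 RPM in the 8-16 cell library.

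**Figure D4:**
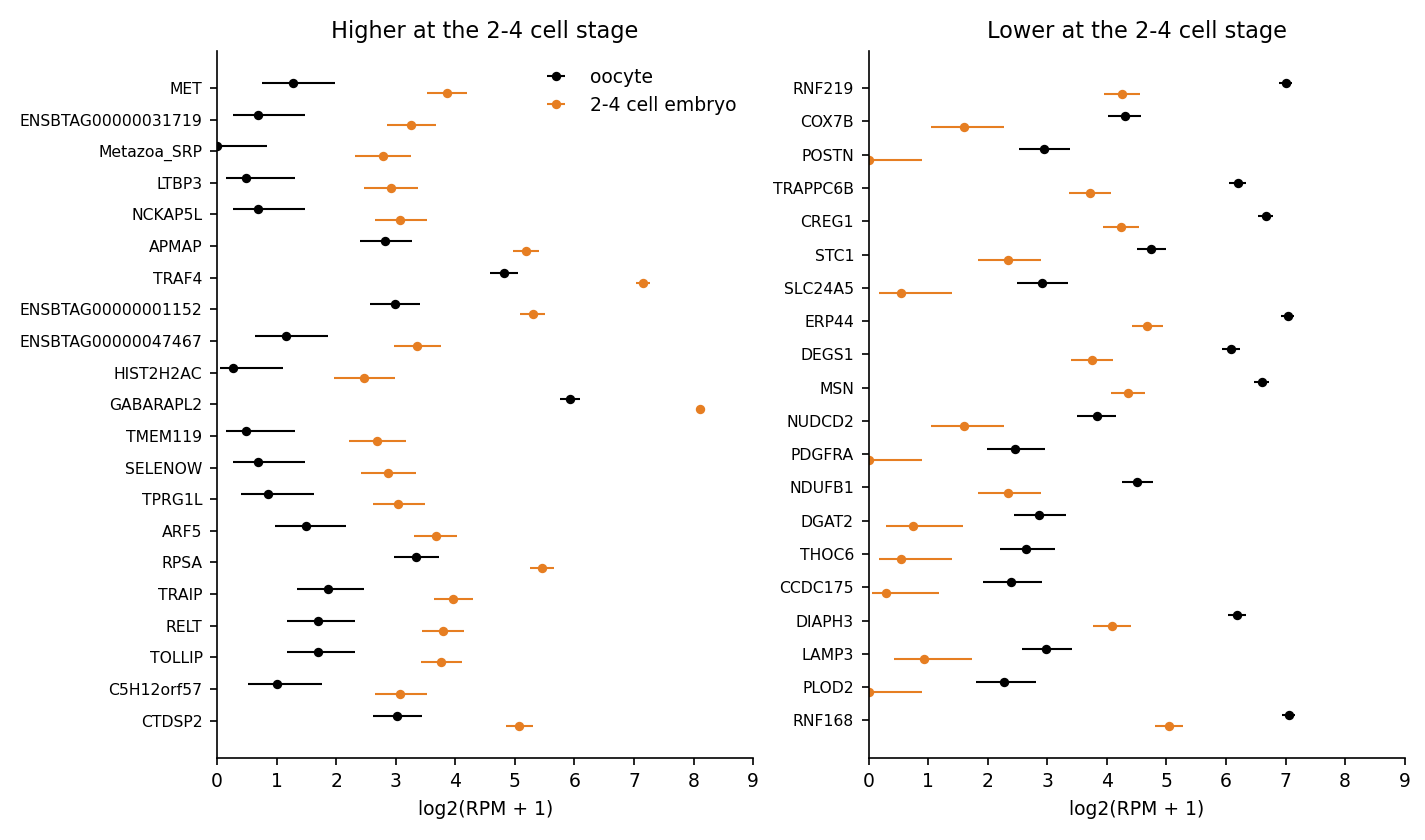
Levels as log2(RPM + 1) in the cow oocyte (black) and 2-4 cell (orange) libraries of 21 of the 22 genes that rose and the 20 that fell, 1 library each, with 95% Wilson intervals that cover counting error only. The intervals of both libraries do not overlap for any gene shown, which follows largely from choosing these genes by the same counts. Most genes that rose start low in the oocyte, and 8 of those that fell start at 50 RPM or more.

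Over all compared genes the intervals did not overlap for 4062 (36.2%), of which 2942 (26.2%) were higher and 1120 (9.98%) lower at the 2-4 cell stage. How much of this 2 libraries of the same stage would show is not known from these data.

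The called genes took different courses afterwards. Their choice used the oocyte and 2-4 cell values, so the later levels are a description. Of the 22 that rose, 14 were under 50% of their 2-4 cell level in the 8-16 cell library, 8 were at 50% or more, and 8 were above the 2-4 cell level in the blastocyst. Of the 20 that fell, 8 were back at the oocyte level or above it in the 8-16 cell library and 10 in some later library, while 7 stayed under 50% of the oocyte level in every later library.

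In pig, most of the same symbols that could be compared lay within 1. The pig table was scaled separately, and there 617 of 11362 compared genes (5.43%) were called between oocyte and 2-4 cell embryo, 370 higher (3.26%) and 247 lower (2.17%), and 3101 (27.3%) differed by 1 or more. Of the genes that fell in cow, 14 were compared in pig: 5 were lower by 1, against 15.6% of pig genes, 9 were within 1 and 0 were higher. NUDCD2 had 67.2 and 13.3 RPM in pig, a difference of -2.25 beside -2.23 in cow, and ERP44 and MSN had -1.22 and -1.30 in pig. CNIH4, just outside the cow threshold, had 122.9 and 6.28 RPM in pig. Of the genes that rose in cow, 8 were compared in pig: 2 were higher by 1, against 11.7% of pig genes, 1 was lower and 5 were within 1. GABARAPL2 had 24.3 and 58.7 RPM in pig and LTBP3 had a pig difference of 1.38. ZP2, which kept its place among the top messages in cow, had 1128 RPM in the pig oocyte and 126 RPM in the pig 2-4 cell library.

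Mitochondrial rows took 4.40% of oocyte reads (4.38% to 4.42%) and 2.74% of 2-4 cell reads (2.72% to 2.75%). This difference came from 1 of the 34 rows. The row ENSBTAG00000043570, at chrMT:1453-3023, held 2.61% and 0.716% of reads, with 26134 and 7164 RPM, a difference of -1.87, while the other mitochondrial rows together held 1.79% and 2.02%. In the 8 protein-coding mitochondrial rows of the list 0 were past 1 in either direction, with a median of 0.63. COX1 had 2966 and 2981 RPM. The row named ATP8, at chrMT:8129-9750, had 1092 and 2149 RPM, and whether its reads come from that gene alone was not tested.

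The differences were also ordered along the genome. For the 1392 genes with 0 to 4 other gene rows centred within 500 kb the median was 0.05, and 3.59% were higher by 1 and 4.17% lower. It was 0.34 with 15 to 19 neighbours and 0.58 for the 1013 genes with 40 or more, of which 18.6% were higher and 0.888% lower. Across genes the Spearman correlation of difference and neighbour number was 0.318, and 0.321 among the 6127 genes at 10 RPM or more in the oocyte. Chromosome medians ran from -0.01 on chromosome 9 (293 genes) to 0.55 on chromosome 25 (380 genes). On 26 of 30 chromosomes the genes with more neighbours had the higher median. Short genes leaned the same way: the median was 0.45 for rows spanning 5 to 10 kb and 0.12 for rows of 100 kb or more. In pig the order was the opposite, with medians of 0.15 at 0 to 4 neighbours and -0.33 at 40 or more, and the denser genes had the higher median on 1 of 19 chromosomes.

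**Figure D5:**
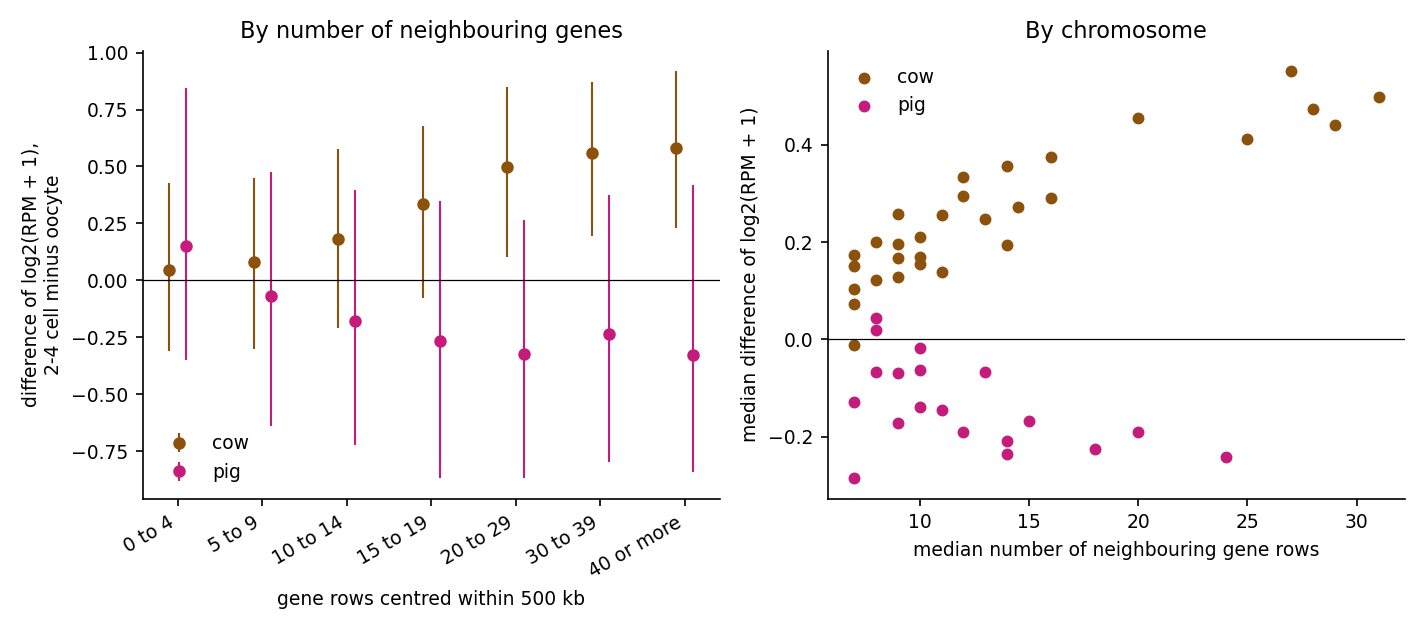
Left, median (points) and quartiles (lines) of the difference of log2(RPM + 1), 2-4 cell minus oocyte, by the number of gene rows centred within 500 kb. Right, median difference against median neighbour number of each chromosome with 100 or more compared genes; cow (brown) rises from left to right in both plots, and pig (pink) falls in the left one.

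The medians of the called genes followed this order. Those that rose had a median of 21 neighbours and a span of 6.37 kb, those that fell 7.5 neighbours and 23.9 kb, and all compared genes 12 neighbours and 25.7 kb. TRAF4 had 41 neighbours, TRAIP 49 and LTBP3 54, while DIAPH3 had 1, RNF219 2 and PLOD2 3. Against the 12 neighbours of the median gene, 3 of the genes that rose had fewer (MET with 4, ARF5 with 8 and RELT with 11), and 2 of those that fell had more (RNF168 with 20 and THOC6 with 52). With each difference centred on the median of its neighbour class, 22 genes were higher and 21 lower by 2, and they include 15 of the 22 that rose and 15 of the 20 that fell. GC content was not measured here, and the part of base composition, input amount or amplification in these differences was not tested.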

How the data were processed

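The deposited values were log2 RPM per gene row and stage, per the file headers and the values: all values in both cow libraries compared, and between 99.9698% and 99.9923% in each other library, lay within 0.02 of a whole number of reads; the authors wrote 0 reads as 0.9 of a read. Per the submitters' processing notes, reads were trimmed with Trim Galore 0.6.4 and aligned with HISAT2 2.1.0, and the cow build was UMD3.1. The counter, annotation, strand setting and duplicate removal are not given in the sources used here.

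From these values RPM, read counts and differences of log2(RPM + 1), with a pseudocount of 1 RPM, were computed in Python 3.11.15 with numpy 2.4.6, pandas 2.3.3 and scipy 1.17.1. Samples were grouped by their titles. A zero entered differences as 0.9 of a read and printed levels as 0 reads. The read floor was 3 and the confidence level 95%. No test was run with 1 library per group, and the calculation was tested on simulated data. The gene set and the 18 gene lists were chosen with earlier results of these data known. Genes named are the called genes with a symbol (1 of them is not reported here), the 20 rows highest in the oocyte, list members past 1 (up to 3 per direction) and the 3 per list with the highest mean RPM over the 5 cow libraries, and the 5 lowest and 5 highest differences among genes at 100 RPM or more. SMC1B, FBXO5, marker genes given by level or at 0 reads, and rows without a symbol, were singled out with their values in view. Of 4144 rows without a symbol, 0 could be matched to a name. Alternatives changed the pseudocount, minimum, scaling, depth, threshold and the rows used.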

Additional observations from a re-analysis of the deposited data

Results flagged for a closer look

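APMAP moved in opposite directions in both species: its difference of log2(RPM + 1), 2-4 cell minus oocyte, was 2.36 in cow (6.09 to 35.4 RPM) and -2.77 in pig (12.4 to 0.967 RPM). It was picked out because the libraries of each species lay on opposite sides; with 1 library per stage and species this difference between species was not tested.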

How the results depend on the processing

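With a pseudocount of 0.5 RPM, 73 genes were called higher and 34 lower, 403 were lower by 1, the median of all genes was 0.29 and genes within 1 held 91.7% of oocyte gene reads. With 5 RPM the values were 2 and 6, 305 higher and 91 lower by 1, 0.18 and 93.0%. A minimum of 5 RPM gave 171 genes lower by 1 and 91.3%, and no minimum gave a median of 0.024 and 92.0%. Median scaling gave 15 and 28 calls, 606 higher and 418 lower by 1, a median of 0.10 and 91.7%. Scaling to gene rows gave 35 and 27 calls, a median of 0.24 and 91.9%, and scaling to non-mitochondrial reads gave 34 and 30, 0.21 and 91.9%. Quantile normalisation gave 12 and 34 calls, 413 higher and 545 lower by 1, 0.021 and 90.5%. The share was 83.9% for rows overlapping no other, 85.9% for rows with a symbol and 92.0% at equal depth. Thresholds of 1.5 and 3 gave 161 and 58 calls, and 0 and 0. Of 3 alternatives added after seeing the data, writing 0 reads as 0 RPM gave 23 and 22 calls, a minimum of 1 RPM in both libraries gave 13 and 12, a median of 0.25 and 91.8%, and centring by neighbours gave 92.4%. The cause of these shifts was not tested. None of the 42 called genes changed sign under an alternative that kept its row. Over named genes and alternatives, 1746 differences stayed within the counting interval of the gene and 197 moved further. No paired analysis was possible because each group has 1 library. Depth limits calls from few reads, such as those for genes with 0 to 3 reads in a library.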
